A study of Meriones unguiculatus and Mus musculus with 2 samples.

Results

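Bone morphogenetic proteins (BMPs), growth and differentiation factors (GDFs) and activins are secreted dimers that bring together type I and type II serine/threonine kinase receptors. BMP-type receptors phosphorylate Smad1, Smad5 and Smad9, activin-type receptors phosphorylate Smad2 and Smad3, and each of these joins Smad4 to act on target genes in the nucleus. Binding proteins outside the cell, the inhibitory Smad6 and Smad7 and the repressors Ski and Skil limit the signal. In skin, BMPs act on hair follicle cycling and keratinocyte differentiation, and activin is known to be induced after wounding.

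The samples were skin wounds taken 3 days after wounding from a Mongolian gerbil, Meriones unguiculatus, and from a mouse of the outbred ICR stock, profiled by RNA sequencing. The gerbil group was 1 library and the ICR group was 1 library, so no difference below has a replicate check, a test or a p-value, and the values describe these 2 libraries only. Species, strain and library cannot be told apart in this design. Genes were chosen by symbol from a table of 41214 mouse genes: BMPs other than the protease Bmp1, GDFs, inhibin and activin subunits, BMP and activin receptors, SMADs, Nog, Chrd, Grem1, Fst, Fstl1, Fstl3, Ski and Skil. This gave 51 genes, of which 38 had both a gerbil and an ICR value and 13 had an ICR value alone. The symbol pattern also took in Bmp2k, a kinase induced by Bmp2 and not a ligand.

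Values are FPKM, fragments scaled to transcript length and library size, as deposited, and were compared as log2(FPKM + 1) in gerbil minus ICR, which understates differences of low genes. Each gerbil value stands beside an expectation value, read here as that of the match between an assembled gerbil sequence and the mouse gene: 0 is the strongest match, and a larger value is a weaker one. Depth is unknown, since neither counts nor read totals were used, and no interval can be given. A gerbil value printed for several genes may be 1 assembled sequence matched to all of them, or a chance match of values rounded to 2 decimals: of 11727 gerbil values below 10 FPKM, 27 stood for a single gene, against 1719 of 9329 at 10 FPKM or more. Setting the gerbil library to another scale moves every difference together. Gerbil values were lowered by 0.35 on the log2 scale by 11 housekeeping genes, by 0.52 by a trimmed mean of log ratios, and by 2.51 by 88 ribosomal protein and housekeeping genes. These scalings moved the median difference of all measured genes by -0.28, -0.41 and -1.69. All 3 lower gerbil values, so a gene lower in gerbil as deposited is lower still under each by construction.

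The labels call the samples skin and the tissue dermis. All 6 dermal fibroblast markers were present in both libraries, with a summed level of 1674 FPKM in gerbil and 1735 FPKM in ICR. Within this sum 2 were higher and 4 lower in gerbil. Col1a2 was at 1079 FPKM in gerbil and 502 FPKM in ICR. Col1a1 was at 203 FPKM in gerbil and 567 FPKM in ICR, and Dcn at 162 FPKM in gerbil and 482 FPKM in ICR. The 4 epidermal keratin markers summed to 32999 FPKM in gerbil and 7862 FPKM in ICR, with 2 higher and 2 lower in gerbil. Of these, Krt14 was at 18470.5 FPKM in gerbil and listed at 0 in ICR, and Krt1 was at 2469 FPKM in gerbil and 2471 FPKM in ICR. Krt5 was at 11792.5 FPKM in gerbil and 4284 FPKM in ICR. Krt10 went the other way, at 268 FPKM in gerbil and 1107 FPKM in ICR, on a match of 4e-83. The gerbil values of Krt14, Krt5 and Krt10 were also listed for 4, 8 and 5 other genes. Krt14 made up the largest part of the gerbil sum, and its 0 in ICR stands beside 4284 FPKM of Krt5. The 2 keratin sums therefore cannot be read as amounts of keratinocytes. The part of the keratinocyte markers in the results below was not tested. Skeletal muscle markers with both values (4 of 5) summed to 322 FPKM in gerbil and 176 FPKM in ICR. Of these, 3 were higher in gerbil and 1, Tnnt3, was lower. The 2 of 4 monocyte and macrophage markers with both values summed to 895 FPKM in gerbil and 1409 FPKM in ICR, but went opposite ways. Cd14 was at 784 FPKM in gerbil and 1332 FPKM in ICR, and Csf1r at 111 FPKM in gerbil and 77.6 FPKM in ICR. In bulk tissue, fewer cells of a type and less RNA per cell cannot be told apart.

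Where a gerbil value is shared, the mouse genes concerned are sometimes alike in sequence, and 1 such pair is shown because a single gerbil number stands for both genes. Gdf5 and Gdf7 are closely related ligands that both carried 1.26 FPKM in gerbil. The stretches below are mouse coding sequence from GENCODE M21 transcripts on GRCm38, 90 bases each, with bases that differ between the genes in capitals. The Gdf7 stretch lies at chr12:8297937-8298026 and the Gdf5 stretch at chr2:155941546-155941635, both on the minus strand, and 74 of 90 bases are identical.
Gdf7: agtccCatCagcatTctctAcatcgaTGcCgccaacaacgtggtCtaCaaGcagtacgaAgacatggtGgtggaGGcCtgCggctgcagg
Gdf5: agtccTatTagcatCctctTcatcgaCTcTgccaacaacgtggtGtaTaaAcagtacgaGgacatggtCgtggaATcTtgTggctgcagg
The match was stronger for Gdf5 (expectation value 0) than for Gdf7 (4e-37). Values this low also coincide by rounding, and the 26 other genes with the 1.26 FPKM of Gdf5 include Gdf7 and many of unrelated function.

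The genes of the set that differed by 4-fold or more between the gerbil and ICR wounds as deposited were higher in gerbil, the activin subunit gene Inhbb among them, but their number was near the background of protein-coding genes and changed with scaling. Of the 38 genes with both values, 37 reached 1 FPKM in at least 1 library and are called measured here. Of these, 4 were at least 4-fold higher in gerbil (Bmp8b, Gdf3, Gdf11 and Inhbb) and 0 were at least 4-fold lower. The limit of 1 FPKM was applied again after scaling, so fewer genes were measured. The counts were 3 higher and 0 lower of 33 under the trimmed mean and of 35 under the housekeeping scaling. They were 1 higher and 10 lower of 28 under the ribosomal and housekeeping scaling. Shares over all genes were not counted under the scalings, so these counts have no background beside them. As deposited, the shares over all 20120 measured genes of the table were 25.9% higher and 5.55% lower. Over 14063 protein-coding genes they were 9.72% higher and 7.42% lower, so 4 of 37 is near the protein-coding background. The median difference of the 37 was 0.63, beside 0.30 for protein-coding genes and 0.87 for all measured genes. It was -0.26 over the 33 genes still measured under the trimmed mean and 0.35 over the 35 under the housekeeping scaling. Over the 28 still measured under the ribosomal and housekeeping scaling it was -1.53. These are not medians of the same 37 genes, so they mix the scaling with the loss of genes that fell below 1 FPKM. The 28 genes matched with an expectation value of 0 had a median of 0.39, beside 0.21 for protein-coding genes matched that well, and 18 of the 28 lay within 2-fold, near the 62% of such genes. The 9 measured genes with weaker matches had a median of 1.18, beside 1.09 for such protein-coding genes.

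Several well-matched genes had almost the same value in both libraries as deposited. Of the 28, 8 differed by no more than 0.1 on the log2 scale as deposited (Fstl1, Ski, Bmp2k, Smad2, Acvr1, Inhba, Acvr2a and Chrd), beside 7.33% of 11159 protein-coding genes matched that well. Among these, Bmp2k and Chrd carried gerbil values that a related or overlapping gene also carried. Chrd was also near 1 FPKM in both libraries, where the scale used understates differences. The limit of 0.1 was chosen after the values were seen. All 8 lay outside it under each scaling. Under the housekeeping scaling Fstl1 was at -0.27 and Smad2 at -0.32, while Acvrl1 came within it at -0.09.

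**Figure D1:**
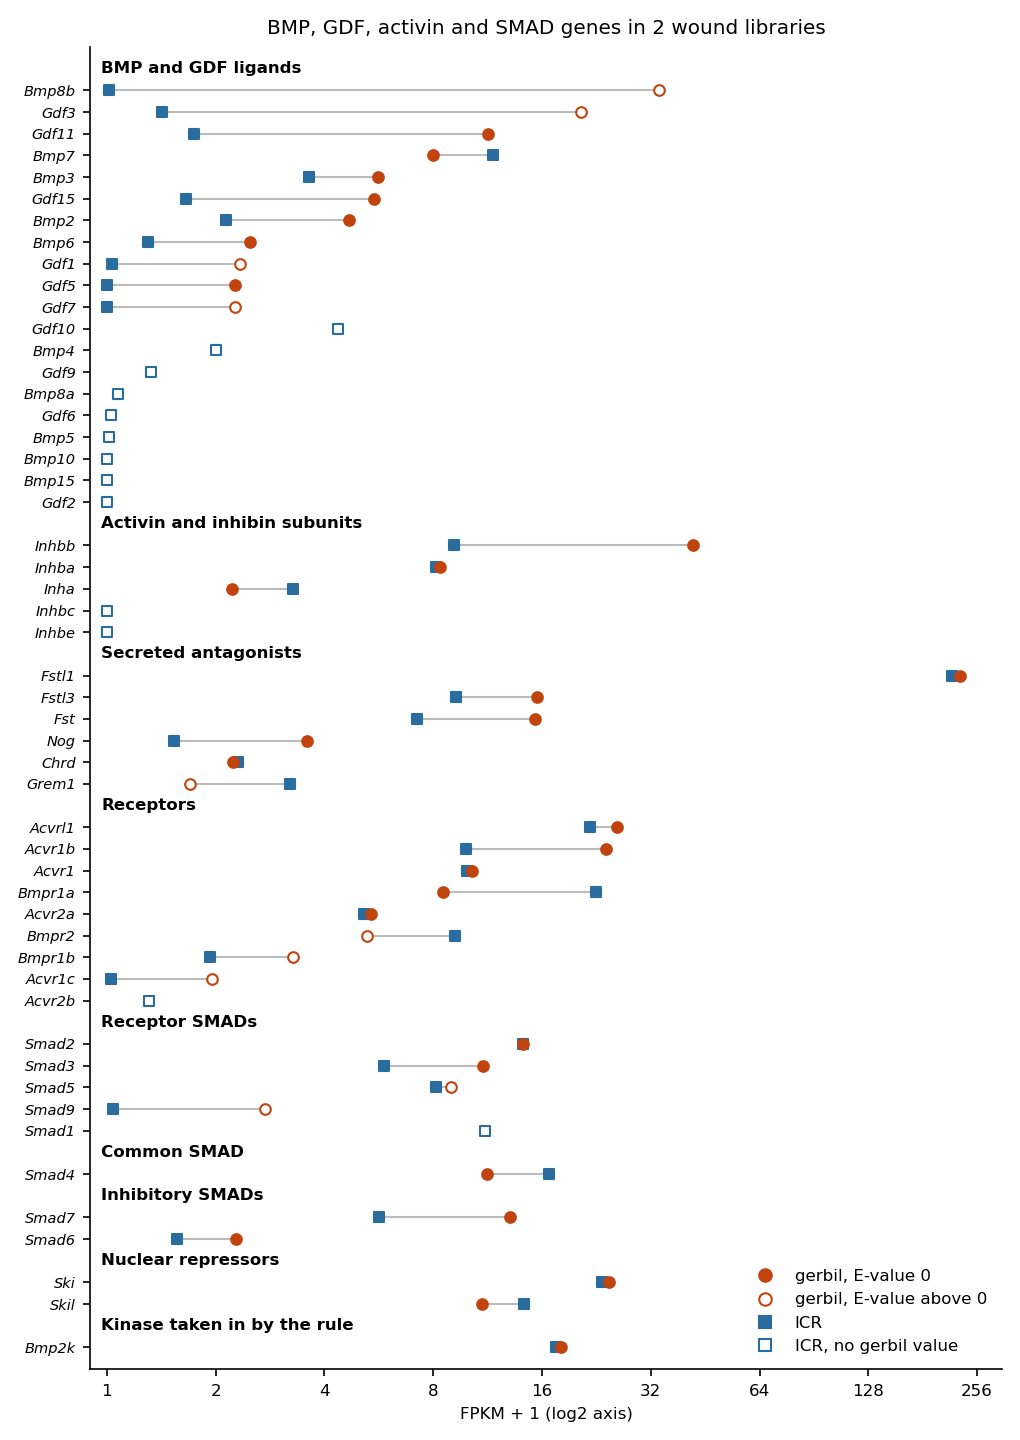
Each row is 1 gene, with its gerbil level (circle) and ICR level (square) on a log2 axis of FPKM + 1, grouped by role; open circles are gerbil matches with an expectation value above 0 and open squares are genes with no gerbil value. As deposited, Inhbb stands far to the right in gerbil (40.9 against 8.14 FPKM in ICR), while the circles and squares of Fstl1, Smad2, Ski and Acvr1 nearly coincide.

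The 11 BMP and GDF ligand genes with a gerbil value spanned 1.26 to 32.7 FPKM in gerbil, and all 20 ligand genes spanned 0 to 10.7 FPKM in ICR. Bmp7, a ligand of developing kidney and epithelia, was the highest in ICR, at 7.01 FPKM in gerbil and 10.7 FPKM in ICR. It was the only one of the 11 lower in gerbil as deposited, with a difference of -0.55. The 3 scalings all lower gerbil values, so Bmp7 stayed lower by construction. Bmp2, a strong inducer of bone and cartilage, was at 3.68 FPKM in gerbil and 1.13 FPKM in ICR. Its difference of 1.14 became 0.87 under the housekeeping, 0.74 under the trimmed mean and -0.37 under the ribosomal and housekeeping scaling. Bmp3, which opposes BMP signalling, was at 4.63 FPKM in gerbil and 2.63 FPKM in ICR, and Bmp6 was at 1.49 FPKM in gerbil and 0.30 FPKM in ICR. Gdf15, a distant family member induced by cell stress, was at 4.49 FPKM in gerbil and 0.65 FPKM in ICR, a 3.32-fold difference on the FPKM + 1 scale. This is 1.73 on the log2 scale. It was 1.45 under the housekeeping, 1.32 under the trimmed mean and 0.12 under the ribosomal and housekeeping scaling.

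The ligand genes past 4-fold in gerbil rested on matches of unequal quality. Gdf11, a relative of myostatin that signals through activin-type receptors, was at 10.3 FPKM in gerbil and 0.74 FPKM in ICR, a 6.51-fold difference on the FPKM + 1 scale. Its match had an expectation value of 0, and the other 2 genes with its gerbil value, Il22ra1 and Tnpo2, had no related transcript. It was higher in gerbil under the 3 scalings too, though by 0.70 on the log2 scale under the ribosomal and housekeeping one, and with a pseudocount of 5 its 1.42 was below 4-fold.

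Bmp8b was at 32.7 FPKM in gerbil and 0.016 FPKM in ICR, on a match of 1e-52. The same gerbil value was listed for Ppie, a cyclophilin-type isomerase gene whose interval overlaps Bmp8b and whose match had an expectation value of 0. A transcript of Bmp8b with no coding part contained 137 bases identical to Ppie on the opposite strand, and Ppie itself was at 22.3 FPKM in ICR. The Bmp8b entry (chromosome 4, 123105165 to 123132099, plus strand, GRCm38) cannot be told apart from Ppie in gerbil.

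Gdf3, an embryonic ligand, was at 19.5 FPKM in gerbil and 0.42 FPKM in ICR, on a match of 1e-33. That gerbil value was listed for 29 other genes, where the median for gerbil values of 15 to 25 FPKM was 2 other genes. Transcripts of 25 of those 29 aligned to Gdf3 over short stretches, each outside its coding part or in a transcript with no coding part, and 19 of the 29 had a smaller expectation value than Gdf3. They included Soat1, Deptor, Sod3 and Ms4a1, genes of unrelated function. The gerbil level of Gdf3 cannot be told apart from that of these genes, and its place among the genes past 4-fold is that of the listed value only.

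Other ligand entries were shared in like ways. Gdf1 carried 1.34 FPKM in gerbil and 0.036 FPKM in ICR, and Cers1, which overlaps it, carried the same gerbil value. Gdf5 and Gdf7 were listed at 0 in ICR. The remaining 9 ligand genes had no gerbil value: Gdf10 was at 3.36 FPKM and Bmp4 at 1.00 FPKM in ICR, and Gdf9, Bmp8a, Gdf6, Bmp5, Bmp10, Bmp15 and Gdf2 were at 0.32 FPKM or less.

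**Figure D2:**
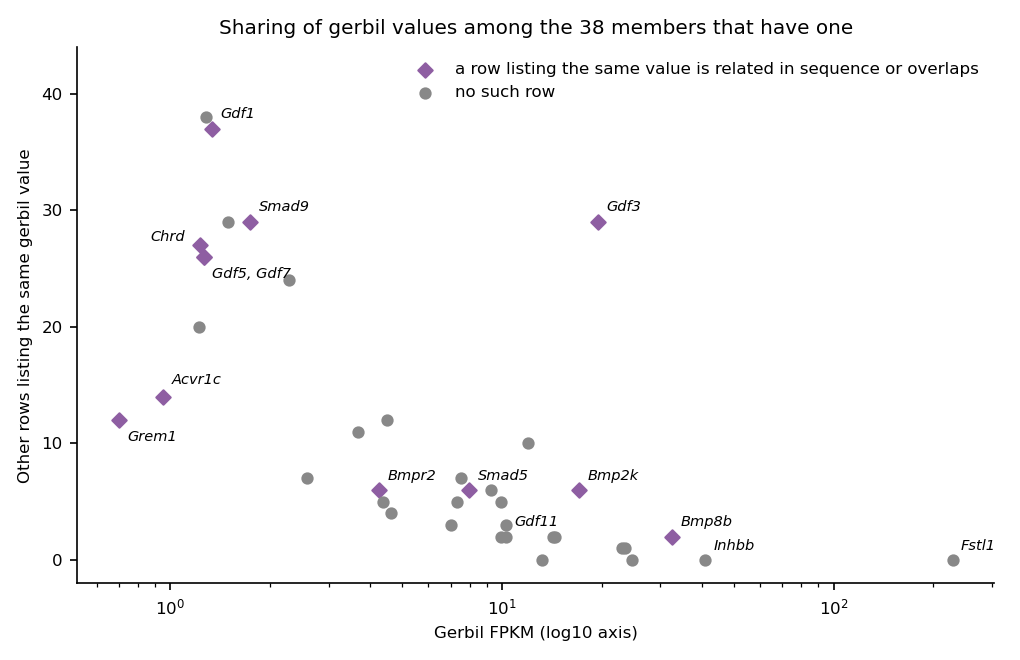
Each point is 1 of the 38 genes with a gerbil value, placed by that value (log10 axis, FPKM) and by the number of other genes in the table that list the same one; diamonds have at least 1 such gene that is related in sequence or overlaps in the genome. Gdf3, with 29 other genes at 19.5 FPKM, stands away from the fall in sharing with level, while Inhbb and Fstl1 share with 0.

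The activin and inhibin subunits differed among themselves. Activins are dimers of beta subunits, and inhibins pair a beta subunit with the alpha subunit. Inhba, the beta A subunit gene, was at 7.33 FPKM in gerbil and 7.12 FPKM in ICR. Inhbb, the beta B subunit gene (chromosome 1, 119415465 to 119422248, minus strand), was at 40.9 FPKM in gerbil and 8.14 FPKM in ICR. Its match had an expectation value of 0, and it was 1 of 4 genes in the set whose gerbil number no other gene carried, with Fstl1, Acvrl1 and Smad2. The difference was 4.58-fold on the FPKM + 1 scale, or 2.196 on the log2 scale; it was 1.86 after the housekeeping and 1.69 after the trimmed mean scaling, both below 4-fold, and -0.16 after the ribosomal and housekeeping scaling. Within a library the scale cancels: Inhbb was 5.58 times Inhba in gerbil and 1.14 times Inhba in ICR. Inha, the alpha subunit gene, was low in both, at 1.22 FPKM in gerbil and 2.27 FPKM in ICR. Inhbc and Inhbe, known as liver subunits, had no gerbil value and were at 0 FPKM in ICR.

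The secreted antagonists held the most abundant gene of the set. Fstl1, a secreted glycoprotein of mesenchymal cells with a follistatin-like domain, was at 229 FPKM in gerbil and 217 FPKM in ICR. Follistatin, Fst, which binds activins and keeps them from their receptors, was at 14.3 FPKM in gerbil and 6.23 FPKM in ICR. Fstl3, a related activin binder, was at 14.5 FPKM in gerbil and 8.24 FPKM in ICR. Fst and Fstl3 were thus higher in gerbil by 1.08 and 0.75 on the log2 scale. They stayed higher under the housekeeping scaling, by 0.76 and 0.42, and under the trimmed mean, by 0.60 and 0.26. Under the ribosomal and housekeeping scaling they were lower by 1.04 and 1.38. The summed level of Inhba and Inhbb was 1.68 times that of Fst and Fstl3 in gerbil and 1.05 times in ICR.

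Noggin, chordin and gremlin, the antagonists of BMP ligands in the set, were at low levels. Twsg1 and Nbl1, described below among the other pathway genes, were higher. Noggin, Nog, was at 2.59 FPKM in gerbil and 0.53 FPKM in ICR. Chordin, Chrd, was at 1.23 FPKM in gerbil and 1.31 FPKM in ICR. Gremlin, Grem1, was at 0.70 FPKM in gerbil and 2.21 FPKM in ICR, on a match of 3e-177 whose gerbil value other genes also carried. Noggin's difference of 1.23 was 0.99 under the housekeeping, 0.87 under the trimmed mean and -0.07 under the ribosomal and housekeeping scaling.

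Receptor genes were mostly level as deposited, and Bmpr1a was the most displaced of them. Of 7 measured receptors, 5 lay within 2-fold. Over protein-coding genes 54.5% did, and 62% of those with an expectation value of 0, so 5 of 7 is near the background. Acvrl1, a type I receptor of endothelial cells for Gdf2 and Bmp10, was at 24.8 FPKM in gerbil and 20.8 FPKM in ICR. The 3 endothelial markers Pecam1, Cdh5 and Kdr were all higher in gerbil before scaling, with a summed level of 29.8 FPKM in gerbil and 15.7 FPKM in ICR, and their part in the level of Acvrl1 was not tested. Acvr1, a type I receptor for BMPs, was at 9.24 FPKM in gerbil and 8.91 FPKM in ICR, and the type II receptor Acvr2a was at 4.37 FPKM in gerbil and 4.14 FPKM in ICR.

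Bmpr1a, a type I BMP receptor needed for hair follicle differentiation, had the largest difference on the ICR side among the 37 measured genes. It was at 7.53 FPKM in gerbil and 21.5 FPKM in ICR, 2.64-fold lower in gerbil on the FPKM + 1 scale. This difference of -1.40 grew under each of the 3 scalings by construction, since all 3 lower gerbil values. Acvr1b, the type I receptor for activins, was at 23.1 FPKM in gerbil and 8.88 FPKM in ICR. Its difference of 1.28 was 0.95 under the housekeeping, 0.79 under the trimmed mean and -0.96 under the ribosomal and housekeeping scaling. Its gerbil value was listed for 1 other gene, Tgfa, which has no related transcript.

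Set against Acvr1 within the same library, Bmpr1a was at 0.81 times in gerbil and 2.41 times in ICR, and Acvr1b was at 2.50 times in gerbil and 1.00 times in ICR. These ratios do not depend on scaling and show only that the receptor genes differed unequally. The type II receptor Bmpr2 was at 4.26 FPKM in gerbil and 8.19 FPKM in ICR, on a match of 3e-101. Of the 6 other genes with that gerbil value, 3 (Exoc1, Pck2 and Setd2) aligned to a Bmpr2 transcript with no coding part. Bmpr1b was at 2.28 FPKM in gerbil and 0.93 FPKM in ICR on a match of 3e-74, and Acvr1c was below 1 FPKM in both libraries. Acvr2b had no gerbil value and was at 0.31 FPKM in ICR.

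Among the SMADs, the activin-type Smad2 was level in both wounds as deposited, and Smad3 was higher in gerbil except under the ribosomal and housekeeping scaling. Smad2 was at 13.2 FPKM in gerbil and 13.2 FPKM in ICR, a difference of -0.0029 on the log2 scale. Smad3 was at 9.96 FPKM in gerbil and 4.84 FPKM in ICR, and its difference of 0.91 was -1.08 under the ribosomal and housekeeping scaling. Smad3 was thus 0.76 times Smad2 in gerbil and 0.37 times in ICR. Smad4, the common partner, was at 10.3 FPKM in gerbil and 15.8 FPKM in ICR. It was lower in gerbil by 0.57 on the log2 scale, and by construction under the 3 scalings too.

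The BMP-type SMADs were less well covered. Smad5 was at 7.98 FPKM in gerbil and 7.16 FPKM in ICR, on a match of 3e-142. The 6 other genes with that gerbil value all had a smaller expectation value, and 2 of them (Atad2 and Mkl2) aligned to Smad5 outside its coding part. Smad1 had no gerbil value and was at 10.1 FPKM in ICR, the highest level among the 13 genes with an ICR value alone. Smad9 was at 1.74 FPKM in gerbil and 0.041 FPKM in ICR, on a match of 2e-65 whose value 29 other genes carried, 5 of them with related stretches outside the Smad9 coding part. A comparison of the total BMP-type SMAD level is therefore not possible here.

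Genes that limit the signal inside the cell differed in direction as deposited. Smad7, an inhibitory SMAD induced by its own pathway, was at 12.02 FPKM in gerbil and 4.66 FPKM in ICR. Its difference of 1.203 was 0.88 under the housekeeping, 0.73 under the trimmed mean and -0.86 under the ribosomal and housekeeping scaling. Its gerbil value was carried by 10 other genes, none with a related transcript. Smad6 was at 1.28 FPKM in gerbil and 0.56 FPKM in ICR. The repressor Ski was at 23.5 FPKM in gerbil and 22.5 FPKM in ICR, while its relative Skil was at 9.95 FPKM in gerbil and 13.2 FPKM in ICR, a difference of -0.38. Bmp2k was at 17.1 FPKM in gerbil and 16.4 FPKM in ICR, a gerbil value also listed for Paqr3, which overlaps it on the opposite strand.

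**Figure D3:**
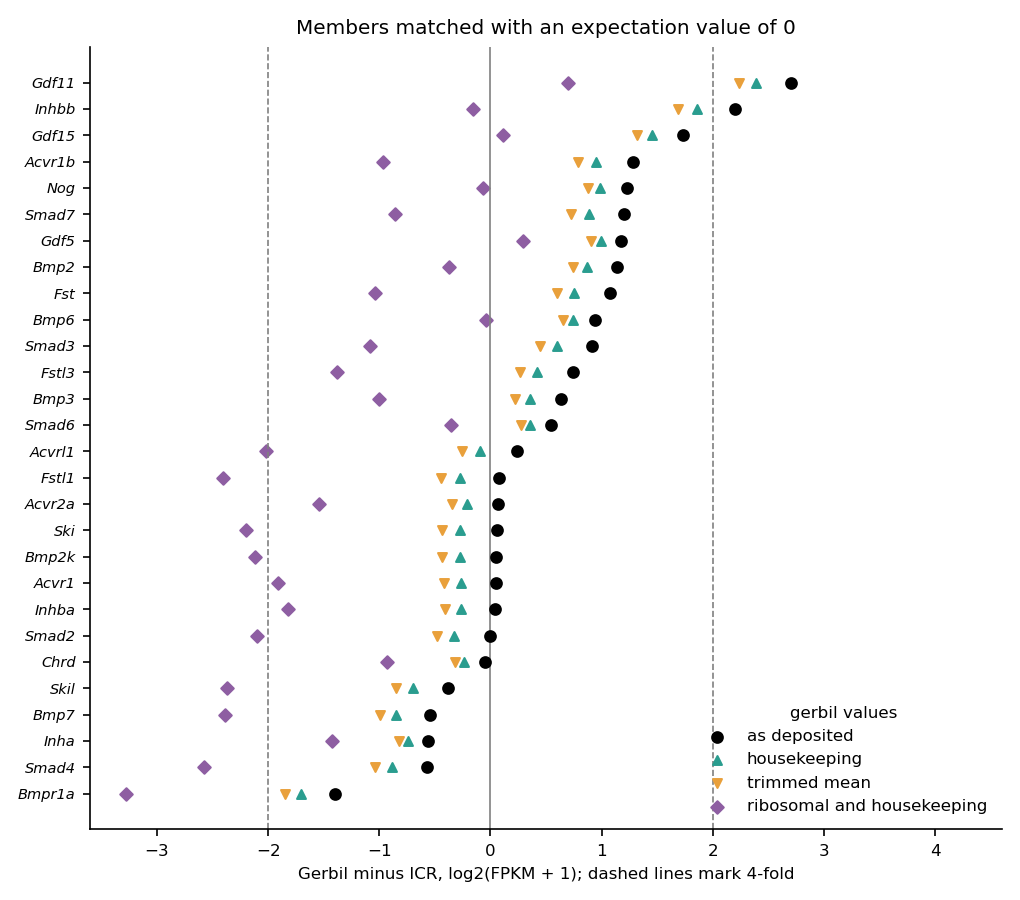
Differences (gerbil minus ICR, log2 of FPKM + 1) of the 28 genes matched with an expectation value of 0, as deposited and under the 3 scalings of the gerbil library; dashed lines mark 4-fold. Bmpr1a lies at the ICR end and Gdf11 at the gerbil end. Each scaling divides all gerbil values by the same number, so the order of genes is largely kept by construction. Inhbb lies at 2.196 as deposited, at 1.86 and 1.69 under the housekeeping and trimmed mean scalings, and at -0.16 under the ribosomal and housekeeping scaling.

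Match strength and sharing went together in this set. Of the 10 genes with an expectation value above 0, 9 carried a gerbil value that a sequence-related or overlapping gene also carried. Of the 28 genes at 0, 3 did (Bmp2k, Chrd and Gdf5). Related genes were sought for this set only, so no share over all genes stands beside these counts. Across genes, which are not independent replicates and share the libraries, Spearman's rho between gerbil and ICR levels was 0.74 over the 28 genes and 0.12 over the 9 weaker measured ones. Protein-coding genes gave 0.69 over 11159 genes at an expectation value of 0 and 0.10 over 2904 above it. Missing gerbil values fell on 13 of 51 genes (25.5%), beside 31.6% of protein-coding genes in the table. Of those 13 genes, 12 have a gene of the same symbol in the RefSeq annotation of the gerbil assembly Bangor_MerUng_6.1, the exception being Bmp8a.

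Among 41 other genes of the pathway, 3 of 4 measured targets of BMP signalling were higher in gerbil as deposited and 1, Id1, was lower. The Id genes encode inhibitors of basic helix-loop-helix factors and are direct BMP targets. Id1 was at 38.4 FPKM in gerbil and 133 FPKM in ICR. Id2 was at 152 FPKM in gerbil and 51.0 FPKM in ICR, and Id3 was at 21.0 FPKM in gerbil and 8.59 FPKM in ICR. All 3 had an expectation value of 0, and no other gene carried the gerbil values of Id1 and Id3. Id1 was lower in gerbil by 1.76 on the log2 scale, and by construction under the 3 scalings too. Id2 and Id3 were higher by 1.56 and 1.19 as deposited. They stayed higher under the housekeeping scaling, by 1.21 and 0.86, and under the trimmed mean, by 1.04 and 0.70. Under the ribosomal and housekeeping scaling both were lower. Independent of scale, Id2 was 3.97 times Id1 in gerbil and 0.38 times in ICR, and Id3 was 0.55 times Id1 in gerbil and 0.065 times in ICR. Id4 had no gerbil value and was at 4.19 FPKM in ICR. Msx2 was at 1.38 FPKM in gerbil and 0.40 FPKM in ICR, and Msx1 was below 1 FPKM in both libraries.

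Of the other pathway genes 30 were measured, 19 higher and 11 lower in gerbil as deposited, with a median of 0.38; 0 were at least 4-fold higher and 2 at least 4-fold lower. Over protein-coding genes 9.72% were that much higher and 7.42% that much lower, so 2 of 30 is near the background for lower genes. Under the ribosomal and housekeeping scaling, 7 of 24 measured were at least 4-fold lower and 0 higher, with no background share counted under that scaling. The first of the 2 was Tgif1, a homeodomain repressor of SMAD-driven transcription, at 1.63 FPKM in gerbil and 37.4 FPKM in ICR. The second was Wwp1, a ubiquitin ligase that acts on SMADs and receptors, at 2.37 FPKM in gerbil and 13.3 FPKM in ICR. Both had an expectation value of 0, although 36 and 23 other genes carried their gerbil values. Tgif2, the relative of Tgif1, was at 6.11 FPKM in gerbil and 1.38 FPKM in ICR, higher in gerbil except under the ribosomal and housekeeping scaling.

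Pmepa1, a membrane protein induced by TGF-beta that sequesters receptor SMADs, was at 59.1 FPKM in gerbil and 16.2 FPKM in ICR, with a gerbil value of its own. Ldlrad4, a membrane protein of the same family, was at 7.93 FPKM in gerbil and 1.66 FPKM in ICR. The differences of 1.81 and 1.74 were 1.465 and 1.44 under the housekeeping scaling and 1.295 and 1.29 under the trimmed mean. They were -0.59 and -0.15 under the ribosomal and housekeeping scaling. The ubiquitin ligases Smurf1 (18.8 FPKM in gerbil and 14.5 FPKM in ICR) and Smurf2 (11.3 FPKM in gerbil and 10.8 FPKM in ICR) and the SMAD phosphatase Ppm1a (24.1 FPKM in gerbil and 25.6 FPKM in ICR) were near level. The anchor protein Zfyve9, which presents Smad2 and Smad3 to receptors, was at 9.18 FPKM in gerbil and 14.4 FPKM in ICR.

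Of 7 other measured antagonists, 4 were lower and 3 higher in gerbil as deposited, and those at 10 FPKM or more were lower. Twsg1, twisted gastrulation, was at 18.2 FPKM in gerbil and 38.4 FPKM in ICR. Nbl1, a relative of gremlin, was at 14.97 FPKM in gerbil and 28.0 FPKM in ICR, with a gerbil value of its own. Their differences of -1.04 and -0.86 grew under each scaling by construction, since each lowers gerbil values. The coreceptor Tgfbr3, betaglycan, which presents inhibin and TGF-beta, was at 24.7 FPKM in gerbil and 10.4 FPKM in ICR, and Eng, endoglin of endothelial cells, was at 17.98 FPKM in gerbil and 11.98 FPKM in ICR. Both stayed higher in gerbil under the housekeeping and trimmed mean scalings and were lower under the ribosomal and housekeeping one. The endothelial markers given above were also higher in gerbil as deposited, and their part in the level of Eng was not tested.

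**Figure D4:**
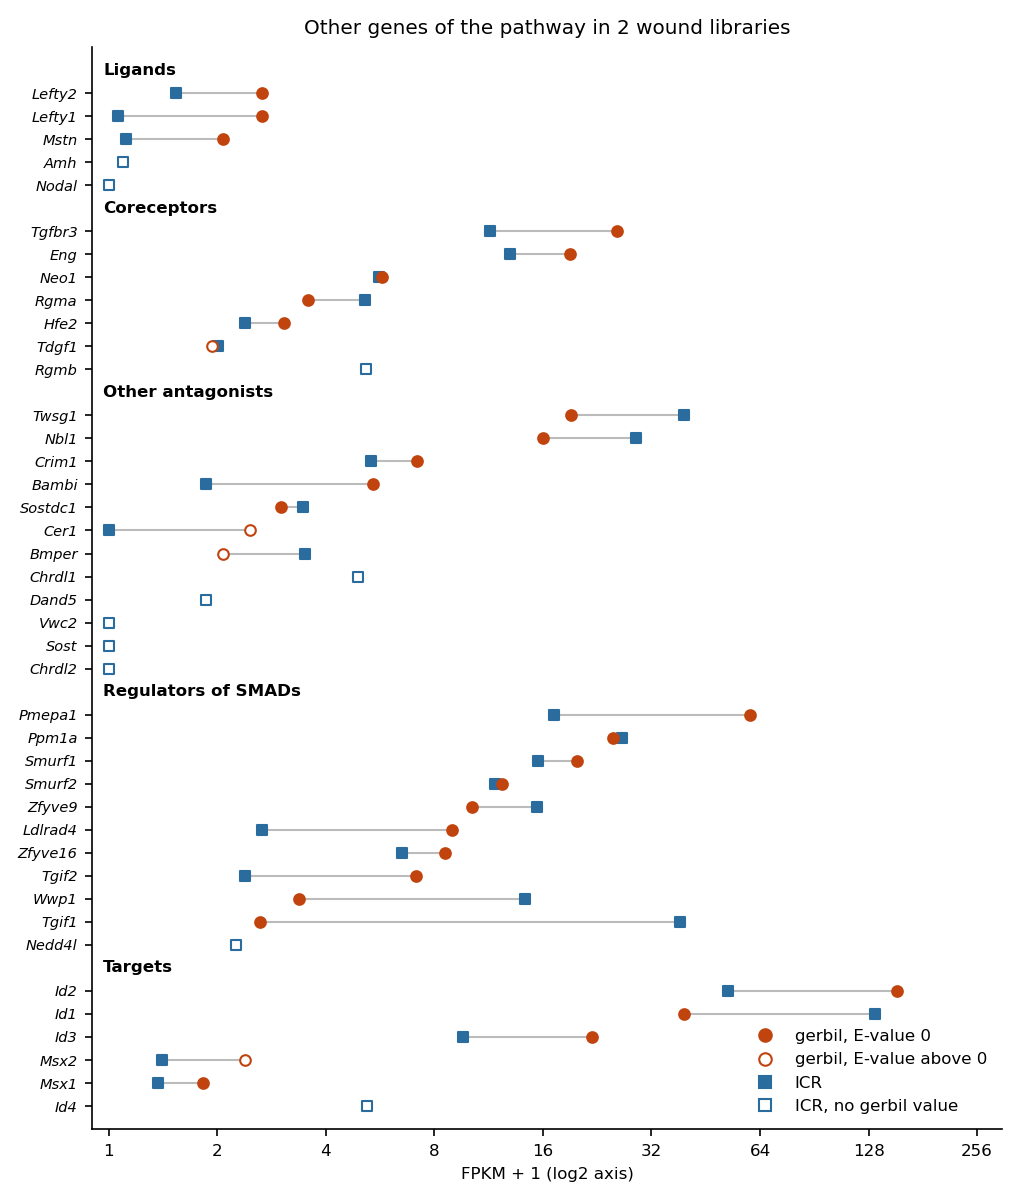
Gerbil (circles) and ICR (squares) levels of the 41 other pathway genes on a log2 axis of FPKM + 1, with open symbols as for the members of the set. Id1 and Tgif1 lie to the left in gerbil, and Id2, Pmepa1 and Ldlrad4 to the right.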

How the data were processed

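Total RNA from wounded skin was made into TruSeq libraries, per the labels' protocols. Tools listed in the submitters' processing notes, with no role given, are RSEM 1.2.19, STAR 2.4.0b, Cufflinks 2.2.1 and CASAVA, beside the mouse build GRCm38.p2. The authors deposited FPKM for both libraries, the gerbil values measured after assembly, per the file headers; for the assembler and the search program, the name is not given in the sources used here. The expectation value deposited beside each gerbil FPKM was used as a score of match strength. Of 41214 genes, 221 had no value.

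The genes and lists were chosen with earlier results of these data known. Differences used a pseudocount of 1 FPKM and measured genes had 1 FPKM or more in at least 1 library. Genes named were those at 10 FPKM or more in either library, those past 4-fold and those with an ICR value alone at 5 FPKM or more. Lower genes were named after their values were seen. Backgrounds of protein-coding genes and of match strength were added after the values were seen. An item of the fixed lists is not reported here. All 51 genes are described by value, count or range.

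The trimmed mean left out 30% of ratios and 5% of levels at each end. For shared gerbil values, GENCODE M21 transcripts (GRCm38) were compared with blastn 2.17.0 without masking, at an expectation value of 1e-05 or less; Gdf1 was not in that annotation under its identifier and was compared by coordinates. Protein-coding class came from the same annotation, in which 40254 gene identifiers were found, 50 of the 51 genes among them as protein-coding. Functions were tested on simulated data. Python 3.11.15, numpy 2.4.6, pandas 2.3.3 and matplotlib 3.10.9 were used.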

Additional observations from a re-analysis of the deposited data

How the results depend on the processing

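No paired analysis was possible because there was a single library of gerbil and a single one of ICR; leaving either out leaves no comparison. As deposited, the count at least 4-fold higher in gerbil was 4, the count lower was 0, and the median difference was 0.63. The count higher was 10 with a pseudocount of 0.1, 2 with a pseudocount of 5, 1 with 1 FPKM required in both libraries, 3 under the trimmed mean, 3 under the housekeeping and 1 under the ribosomal and housekeeping scaling, 2 at an expectation value of 0, 1 among gerbil values listed for no other gene, and 14 with a 2-fold rule. The count lower was 10 under the ribosomal and housekeeping scaling and 1 with a 2-fold rule. The median was 0.81 with a pseudocount of 0.1, 0.29 with 5, 0.69 with no floor, 0.11 with a floor of 5 FPKM, 0.061 with 1 FPKM in both libraries, -0.26 under the trimmed mean, 0.35 under the housekeeping and -1.53 under the ribosomal and housekeeping scaling, 0.39 at an expectation value of 0 and 0.16 among 4 genes with gerbil values of their own. Chosen after seeing the data, leaving out genes whose gerbil value a related or overlapping gene carried gave 2 higher and a median of 0.59, and leaving out Bmp2k gave a median of 0.69. Inhbb changed sign under the ribosomal and housekeeping scaling, at -0.16. The floor of 1 FPKM was applied again after scaling. This left 33 genes under the trimmed mean, 35 under the housekeeping and 28 under the ribosomal and housekeeping scaling. Medians under a scaling are thus not over the same genes as the deposited one. The cause was not tested, except that restricted sets hold fewer genes by construction. Depth is unknown, so no limit on low values can be given.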
